A study of Mus musculus with 11 samples.

Results

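The genes described here are 10 clotting and fibrinolysis genes made mainly by hepatocytes: prothrombin (F2), factors V, VII, IX, X, XI and XII (F5, F7, F9, F10, F11 and F12), protein C (Proc), protein S (Pros1) and plasminogen (Plg). They were chosen by symbol: each had to be the only gene named for its probe set, and where a gene had several such probe sets the brightest over the 11 arrays was taken. Each of the 10 had 1 probe set of its own, so all 10 were measured, out of 19938 genes tested. The samples were livers of male mice aged 14 months: 4 samples lacking both Mdr2 and IL-6 (Mdr2-KO/IL6-KO), 4 lacking Mdr2 alone (Mdr2-KO) and 3 of wild-type C57BL/6. No strain is labelled for the knockouts. Sample titles number wild-type samples with W and knockout samples with BIL, and what the letters stand for is not stated, so any difference they mark would coincide with genotype. In the knockouts the sampled tissue was free of tumour, and both knockout groups share the loss of Mdr2, the phospholipid pump of the bile canaliculus encoded by Abcb4. RNA was read on Affymetrix arrays, and levels below are log2 levels made by RMA, log2 changes are differences of their group means, and folds, percent ratios and summed marker levels are taken back to the linear scale. The labels do not say that each array is a separate mouse, so the spread behind each p-value is that between samples and may be technical.

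Blood clots when a chain of liver-made proteases is activated in turn. Factor VIIa with tissue factor, or factor IXa fed by factors XI and XII, activates factor X, which with factor V converts prothrombin to thrombin. Thrombin then cuts fibrinogen to fibrin. Protein C, with protein S as its cofactor, switches off factors V and VIII, and plasmin made from plasminogen dissolves the clot. Prothrombin, factors VII, IX and X and proteins C and S need vitamin K for their gamma-carboxylation, and vitamin K uptake depends on bile. Several clotting proteins, fibrinogen first among them, are acute-phase proteins that interleukin 6 induces in hepatocytes through STAT3.

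The arrays and labels were read first. Between any pair of arrays Pearson r over probe sets lay between 0.976 and 0.990, and the array medians lay between 5.09 and 5.23. Abcb4 averaged 8.09 in Mdr2-KO/IL6-KO, 7.74 in Mdr2-KO and 9.83 in wild-type livers, and fell 3.34-fold and 4.26-fold against wild type in these knockouts. Il6 read 1.62 to 2.09 over all arrays, near the bottom of the scale, so it does not check the IL-6 label. Mdr2-KO replicates 2 and 3 lay farthest apart on the second principal component, at -25.8 and 21.0. Of 7 measured hepatocyte markers 0 passed the test in any comparison. In Mdr2-KO/IL6-KO against wild type, arrays did not overlap for 5 of the 7, against 16.3% of all genes. Of these, Hnf4a, Ttr, Apoa1 and Alb were lower (81.3%, 88.8%, 89.7% and 94.9% of wild type) and Cps1 was higher (116%). The summed linear level of all 7 markers, in which the brightest count most, ranged from 39651 to 41258 in Mdr2-KO/IL6-KO, from 39434 to 41854 in Mdr2-KO and from 40990 to 41614 in wild-type livers. All 10 genes read at 8.10 or above on every array. None lies on the chromosome that carries Abcb4 and Il6 in the RefSeq gene table.

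Promoter sequences are shown because interleukin 6 acts through STAT3 and 1 knockout lacks it. RefSeq promoters (GRCm38.p6) were at hand for 8 of the 10 genes, with none used for Plg and Proc, and the 250 bases before the start given in that table were searched on both strands. That start is not always the outermost one of the gene: 3 of the 8 windows reach into the RefSeq gene span, that of F7 with all 250 bases, F9 with 135 and F11 with 24. Capitals mark letters that match TTCNNNGAA (STAT), GTTAAT (HNF1), CAAAGTCCA (HNF4), TTGCNNCAA (C/EBP) or TGTTTNC (forkhead). F2 and F10 stand for the 6 genes with their lowest mean in Mdr2-KO/IL6-KO, which were F2, F7, F9, F10, Proc and Plg. Pros1 stands for those with a STAT match, of which F9 is another, so these sets overlap. Fga, Fgb and Fgg are the chains of fibrinogen, which all fell in Mdr2-KO/IL6-KO against wild type.
F2 (chr2:91636458-91636707, minus strand): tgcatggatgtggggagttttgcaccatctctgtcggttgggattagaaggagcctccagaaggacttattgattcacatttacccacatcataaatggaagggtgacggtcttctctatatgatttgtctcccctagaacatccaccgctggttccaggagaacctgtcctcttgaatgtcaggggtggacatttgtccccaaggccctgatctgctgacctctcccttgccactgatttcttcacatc
F10 (chr8:13037058-13037307, plus strand): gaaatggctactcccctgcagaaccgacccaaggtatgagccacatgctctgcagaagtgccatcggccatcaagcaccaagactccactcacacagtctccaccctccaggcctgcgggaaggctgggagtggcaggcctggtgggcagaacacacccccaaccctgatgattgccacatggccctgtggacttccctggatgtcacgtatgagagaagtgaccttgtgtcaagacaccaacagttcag
Pros1 (chr16:62854057-62854306, plus strand): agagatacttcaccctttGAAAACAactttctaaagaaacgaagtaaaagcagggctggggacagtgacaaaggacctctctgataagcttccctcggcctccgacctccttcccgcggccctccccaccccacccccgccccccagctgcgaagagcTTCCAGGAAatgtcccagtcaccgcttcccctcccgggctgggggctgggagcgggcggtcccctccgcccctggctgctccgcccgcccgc
Fga (chr3:83025903-83026152, plus strand): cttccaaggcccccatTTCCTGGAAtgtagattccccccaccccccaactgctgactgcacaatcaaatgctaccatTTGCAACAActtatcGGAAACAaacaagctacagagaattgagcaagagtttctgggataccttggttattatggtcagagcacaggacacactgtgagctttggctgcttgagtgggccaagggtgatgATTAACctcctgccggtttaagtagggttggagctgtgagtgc
Fgb (chr3:83049864-83050113, minus strand): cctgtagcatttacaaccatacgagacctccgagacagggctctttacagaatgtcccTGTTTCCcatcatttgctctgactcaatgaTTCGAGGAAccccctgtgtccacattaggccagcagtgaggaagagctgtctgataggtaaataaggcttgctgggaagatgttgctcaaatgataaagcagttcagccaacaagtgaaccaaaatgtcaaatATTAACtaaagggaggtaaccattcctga
Fgg (chr3:83007474-83007723, plus strand): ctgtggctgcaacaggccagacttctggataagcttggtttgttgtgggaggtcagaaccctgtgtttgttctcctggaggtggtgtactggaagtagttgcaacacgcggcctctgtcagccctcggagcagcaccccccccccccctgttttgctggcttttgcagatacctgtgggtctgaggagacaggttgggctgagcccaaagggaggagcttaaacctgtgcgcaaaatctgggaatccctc

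The STAT letters were found in 2 of the 8 promoters (F9 and Pros1), against 7.02% of 32851 promoter windows, and the F9 match lies inside the gene span. Of the fibrinogen chains, Fga and Fgb held the STAT letters and Fgg held none of the motifs searched. Forkhead letters were in 2 of the 8 (F11 and Pros1), against 17.8% of all windows. The HNF1, HNF4 and C/EBP letters were in 0 of the 8, against 6.43%, 0.384% and 1.74%. In Fga and Fgb the HNF1 and forkhead letters were also found, and in Fga those of C/EBP. None of the motifs searched occurred in F2, F5, F7, F10 or F12. These matches describe letters in a short window and do not show binding. Each motif was searched in a single form, so sites spelled otherwise, in Fgg or elsewhere, would not be seen. F9 and Pros1, which hold the STAT letters, had log2 changes of -0.04 and -0.08 between Mdr2-KO/IL6-KO and Mdr2-KO. The other 6 genes searched ran from -0.20 (F10) to 0.05 (F11). The part of the STAT letters in these changes was not tested.

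The 10 genes stood at 85.0% to 106% of wild type in Mdr2-KO/IL6-KO livers and at 92.9% to 112% in Mdr2-KO livers. None of the 10 genes passed the test in Mdr2-KO against wild type, in Mdr2-KO/IL6-KO against Mdr2-KO, or in Mdr2-KO/IL6-KO against wild type, at an adjusted p of 0.05 in limma over all genes. Across all 19938 genes, 1.26%, 0.00502% and 4.19% were called in these comparisons. By direction, 0.948% were called higher and 0.316% lower in Mdr2-KO against wild type, 0% higher and 0.00502% lower between the knockouts, and 2.91% higher and 1.28% lower in Mdr2-KO/IL6-KO against wild type. A count of 0 among 10 genes is therefore near the background in each. At an unadjusted p under 0.05 the counts were 0, 1 and 4 of 10, against 9.79%, 4.82% and 15.5% of all genes. The largest difference for any of the 10 was 1.18-fold, for Plg between Mdr2-KO/IL6-KO and wild type. With the 95% interval of each gene's change, not adjusted for the 10 genes, the widest bounds were 1.31-fold, 1.30-fold and 1.36-fold in the 3 comparisons. Larger changes than these lie outside every interval. Lower levels of hepatocyte genes in whole tissue can come from fewer hepatocytes or from less RNA in each, which cannot be told apart here.

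**Figure D1:**
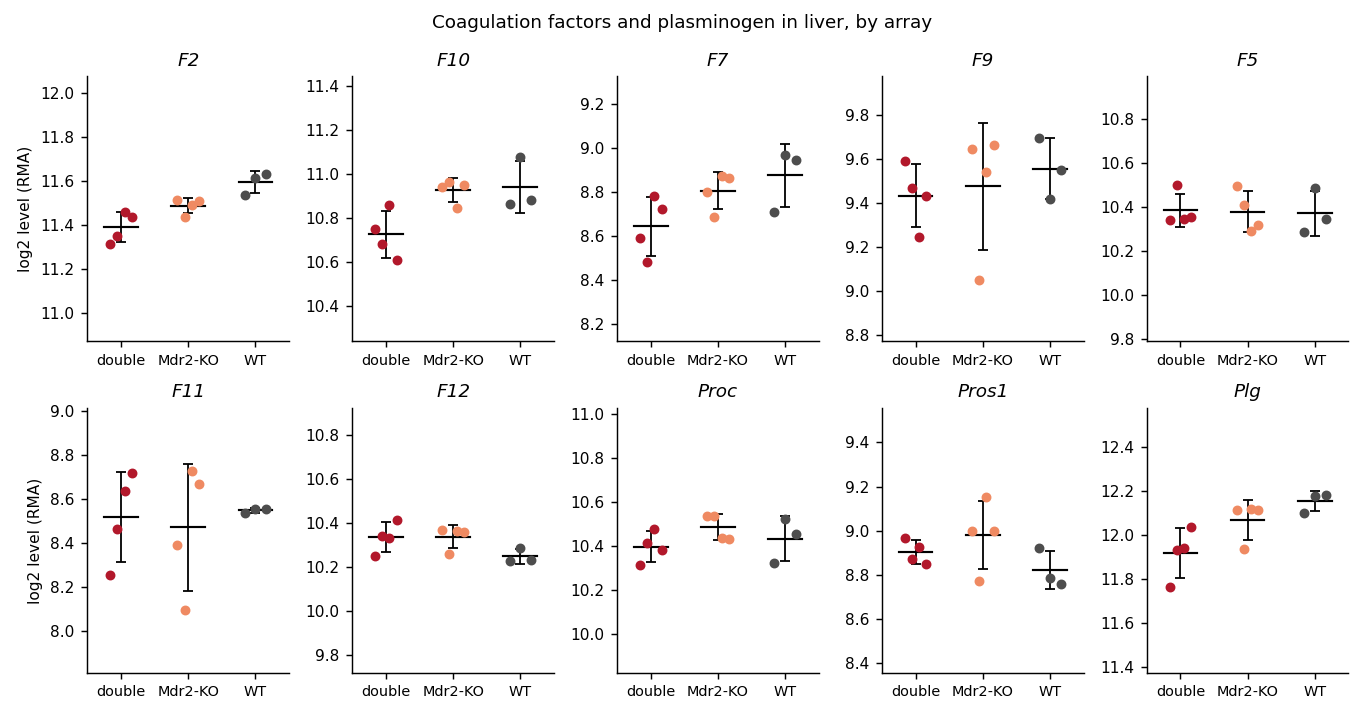
Log2 RMA level (vertical axis, 1.2 units in every panel) of each of the 10 genes on each array, for Mdr2-KO/IL6-KO ("double", n = 4), Mdr2-KO (n = 4) and wild type ("WT", n = 3). Points are arrays, lines the mean and bars the SD. F2, F10 and Plg in Mdr2-KO/IL6-KO lie below all wild-type arrays, while F5 and F11 overlap fully.

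Among the genes of the common pathway, prothrombin and factor X were lowest in Mdr2-KO/IL6-KO livers and factor V was at nearly the same level in all groups. F2, the precursor of thrombin, read 11.32, 11.35, 11.46 and 11.44 in Mdr2-KO/IL6-KO livers, 11.51, 11.44, 11.49 and 11.51 in Mdr2-KO livers, and 11.54, 11.61 and 11.63 in wild-type livers. Every array of either knockout lay below all wild-type arrays, and the knockouts overlapped. The level in Mdr2-KO/IL6-KO was 86.9% of wild type (log2 change -0.20 ± 0.08 SE, adjusted p = 0.199), and that in Mdr2-KO was 92.9% of wild type (log2 change -0.11, adjusted p = 0.760). F10, whose protein cuts prothrombin, read 10.75, 10.68, 10.86 and 10.61 in Mdr2-KO/IL6-KO, 10.94, 10.97, 10.85 and 10.95 in Mdr2-KO, and 10.87, 11.08 and 10.88 in wild-type livers. Mdr2-KO/IL6-KO lay below all wild-type arrays and overlapped Mdr2-KO by 1 array, while Mdr2-KO and wild type overlapped. F10 had the lowest p of the 10 genes between the knockouts (87.1% of Mdr2-KO, log2 change -0.20 ± 0.08 SE, unadjusted p = 0.0305, adjusted p = 0.9995). F5, the cofactor of factor X, averaged 10.38 ± 0.076 in Mdr2-KO/IL6-KO, 10.38 ± 0.093 in Mdr2-KO and 10.37 ± 0.102 in wild-type livers (SD, n = 4, 4 and 3). Its arrays spanned 10.29 to 10.50, and its log2 changes in the 3 comparisons were 0.01.

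Factor VII of the extrinsic arm was also lowest in Mdr2-KO/IL6-KO livers; its gene neighbours that of factor X. F7 read 8.59, 8.48, 8.78 and 8.72 in Mdr2-KO/IL6-KO livers, 8.80, 8.69, 8.87 and 8.86 in Mdr2-KO livers, and 8.71, 8.97 and 8.95 in wild-type livers. All groups overlapped, with 1 wild-type array inside the range of both knockouts. The level in Mdr2-KO/IL6-KO was 85.2% of wild type (log2 change -0.23 ± 0.10 SE, adjusted p = 0.278) and 89.4% of Mdr2-KO (adjusted p = 0.9995).

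In the intrinsic arm, factors IX and XI varied most between arrays and factor XII least. F9, the haemophilia B factor, read 9.59, 9.47, 9.25 and 9.43 in Mdr2-KO/IL6-KO, 9.64, 9.05, 9.54 and 9.66 in Mdr2-KO, and 9.69, 9.42 and 9.55 in wild-type livers. Mdr2-KO replicate 2 stood below all other arrays, and the rest overlapped. F11, which activates factor IX, read 8.26, 8.46, 8.63 and 8.72 in Mdr2-KO/IL6-KO, 8.39, 8.10, 8.73 and 8.67 in Mdr2-KO, and 8.54, 8.56 and 8.55 in wild-type livers. The wild-type arrays fell inside the range of either knockout, whose SD were 0.204 and 0.289, against 0.0107 in wild type (n = 4, 4 and 3); a difference in spread was not tested. F12, the contact factor, had the narrowest range of the 10 over all arrays, from 10.22 to 10.41. It averaged 10.33 ± 0.068 in Mdr2-KO/IL6-KO, 10.34 ± 0.053 in Mdr2-KO and 10.25 ± 0.033 in wild-type livers (SD, n = 4, 4 and 3). None of these 3 genes reached an unadjusted p of 0.05 in any comparison.

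The natural anticoagulants overlapped between all groups. Proc, whose active form degrades factor V, averaged 10.40 ± 0.069 in Mdr2-KO/IL6-KO, 10.49 ± 0.059 in Mdr2-KO and 10.43 ± 0.102 in wild-type livers (SD, n = 4, 4 and 3). Its arrays ran from 10.31 to 10.54 with all groups overlapping. Pros1, which endothelial cells also make, read 8.97, 8.87, 8.92 and 8.85 in Mdr2-KO/IL6-KO, 8.996, 8.773, 9.150 and 8.998 in Mdr2-KO, and 8.92, 8.79 and 8.76 in wild-type livers. It had the lowest p of the 10 genes in Mdr2-KO against wild type (112% of wild type, log2 change 0.16 ± 0.09 SE, adjusted p = 0.671), and Mdr2-KO replicate 2 lay among the wild-type arrays. Of 7 measured endothelial markers 0 passed in that comparison, and their summed level ranged from 1557 to 2043 in Mdr2-KO against 1429 to 1834 in wild-type livers. The part of endothelial cells in the Pros1 level was not tested.

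Plasminogen had the lowest p of the 10 genes in Mdr2-KO/IL6-KO against wild type. Plg read 11.77, 11.93, 11.94 and 12.04 in Mdr2-KO/IL6-KO livers, 12.11, 11.94, 12.12 and 12.11 in Mdr2-KO livers, and 12.10, 12.18 and 12.18 in wild-type livers. All Mdr2-KO/IL6-KO arrays lay below all wild-type arrays, and Mdr2-KO lay between and overlapped both. The level in Mdr2-KO/IL6-KO was 85.0% of wild type (log2 change -0.24 ± 0.09 SE, adjusted p = 0.195) and 90.0% of Mdr2-KO (adjusted p = 0.9995).

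**Figure D2:**
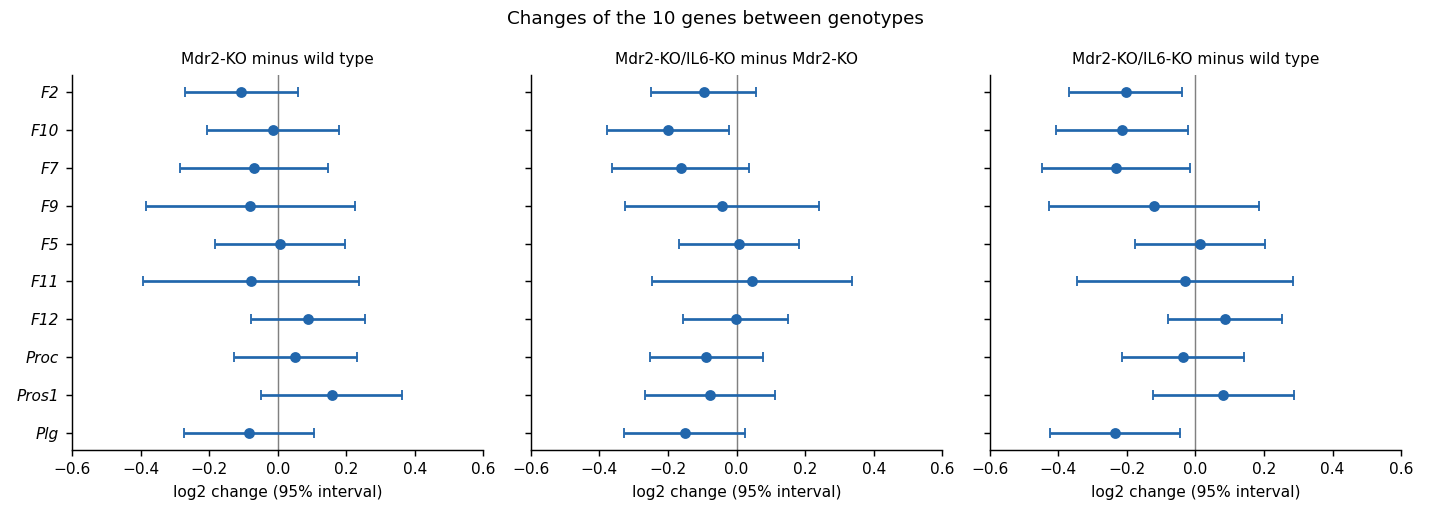
Log2 change (points) with its 95% interval from the limma model (bars) for the 10 genes in each comparison. The 4 intervals of F2, F10, F7 and Plg lie below 0 between Mdr2-KO/IL6-KO and wild type, and none of the changes passes adjustment over all genes.

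Set side by side, F2, F10, F7 and Plg were at 85.0% to 86.9% of wild type in Mdr2-KO/IL6-KO livers, while F12 and Pros1 were both at 106%. Arrays did not overlap for 3 of the 10 genes in that comparison (Plg, F2 and F10), against 16.3% of all genes, for 1 (F2) in Mdr2-KO against wild type, against 9.13% of all genes, and for 0 between the knockouts, against 2.51%. All of these genes were lower in the knockout. Arrays that did not overlap and were lower made up 6.44% of all genes in Mdr2-KO/IL6-KO against wild type, 3.64% in Mdr2-KO against wild type and 0.908% between the knockouts, and those that were higher 9.85%, 5.49% and 1.6%. Since the 10 genes were chosen with earlier results known, these shares are set side by side without a test. The median log2 change over the 10 was -0.08 in Mdr2-KO/IL6-KO against wild type, -0.08 between the knockouts and -0.04 in Mdr2-KO against wild type, beside a median of -0.00, 0.01 and -0.01 over all genes. In 6 of the 10 the lowest group mean was that of Mdr2-KO/IL6-KO, which was not particular to these genes. Among other secreted hepatocyte proteins the same held for Alb, Ttr, Apoa1, Apoa2, Apoh, Trf and Ahsg, and not for Apob and Rbp4. The comparisons with wild type share their control arrays, and the 10 genes are not replicates of one another. The bile duct markers moved with genotype: 3 of 6 measured (Krt19, Epcam and Cd24a) were higher in either knockout than in wild type, and their summed level ranged from 504 to 682 in Mdr2-KO/IL6-KO, 517 to 656 in Mdr2-KO and 292 to 329 in wild-type livers. Likewise 4 of 6 stellate and fibroblast markers (Col1a1, Col3a1, Pdgfrb and Dpt) were higher, with summed levels of 927 to 1286 and 879 to 1035 in these knockouts against 529 to 607 in wild type. Over all genes, 2.91% were called higher in Mdr2-KO/IL6-KO and 0.948% in Mdr2-KO against wild type. The part of bile duct, stellate and fibroblast cells in the levels of the 10 genes was not tested.

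The spread within groups was also read for the 10 genes. Their median residual SD, the spread of arrays about their own group mean, was 0.0924 on the log2 scale, against 0.128 over the 1663 genes at least as bright as the dimmest of them and 0.150 over all genes. Of those 1663 genes, 10.9% were called in Mdr2-KO/IL6-KO against wild type and 1.86% in Mdr2-KO against wild type. Low spread was not particular to the 10 genes. Among other secreted hepatocyte proteins the residual SD was 0.026 for Alb, 0.037 for Trf and Ahsg, 0.039 for Apob and 0.053 for Ttr. It was 0.063 for Rbp4, 0.070 for Apoa1, 0.129 for Apoa2 and 0.150 for Apoh. Mdr2-KO replicate 2 was the lowest of its group for 7 of the 10 genes, and Mdr2-KO/IL6-KO replicate 1 and wild-type replicate 1 were lowest for 6 and 8. After subtracting group means, Plg and F12 went together most closely of the 45 pairs (Pearson r = 0.95 over 11 arrays), then F2 and F7 (0.86) and F11 and Plg (0.85). F9 and Proc ran most opposite (-0.65), and the neighbours F7 and F10 had r = 0.30. These are descriptions over 11 arrays that share array-wide differences. Among all genes the closest to Plg by this measure were Dhx9 (0.97), F12 (0.95) and Ino80 (0.95). The closest to F2 were Xpo6 (0.96), Zfp612 (0.94) and 4930563E22Rik (0.94), and the closest to F10 were Skint11 (0.97), Triobp (0.95) and Vmn1r89 (0.95). Such partners are the highest picked from all genes over 11 arrays, where selection alone can give high r, and shared regulation was not tested.

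**Figure D3:**
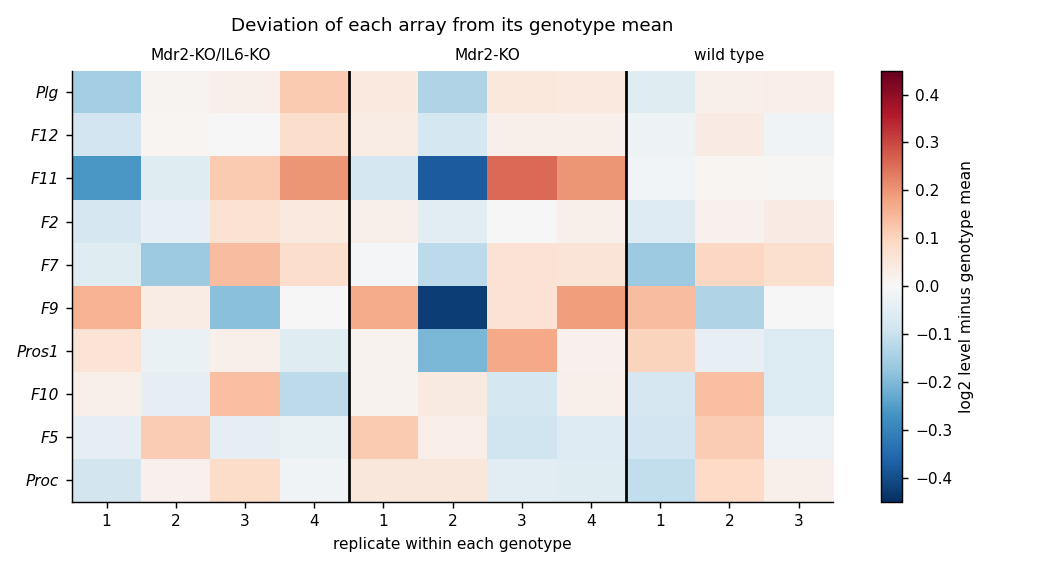
Log2 level of each of the 10 genes on each array minus the mean of its genotype, in colour (red above, blue below), with columns as replicates of Mdr2-KO/IL6-KO, Mdr2-KO and wild type. Mdr2-KO replicate 2 is below its genotype mean for F9, F11, Pros1, Plg, F7, F12 and F2, and above it for F10, F5 and Proc.

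The rest of the haemostasis system was read in lists of related genes, in which some genes passed, the fibrinogen chains among them. The lists were chosen with earlier results of these data known, so their counts are set beside the shares of all genes without a test. Fgb, the beta chain of fibrinogen, read 12.07, 12.06, 12.19 and 12.03 in Mdr2-KO/IL6-KO livers, 12.34, 12.29, 12.40 and 12.35 in Mdr2-KO livers, and 12.69, 12.56 and 12.67 in wild-type livers. The 3 groups did not overlap anywhere, with Mdr2-KO between the others. Fgb fell 1.47-fold in Mdr2-KO/IL6-KO against wild type (log2 change -0.56 ± 0.08 SE, adjusted p = 0.00137), and so did the gamma chain Fgg, also 1.47-fold (adjusted p = 0.00175). The alpha chain Fga fell 1.83-fold (adjusted p = 0.0343), with all 4 Mdr2-KO/IL6-KO arrays between 9.09 and 9.11 against 9.57 to 10.36 in wild type. Kng1, the kininogen that carries factor XI and prekallikrein, fell 1.26-fold (adjusted p = 0.0318). These 4 were the calls among 10 measured of 11 other procoagulant genes, against 1.28% of all genes called lower. The median log2 change of that list was -0.35, beside -0.08 for the 10 genes above, a difference that was not tested. That list was uneven. Kng2 and F13a1 were also lower without passing (log2 change -0.37 and -0.41), while F8, F13b, F3 and Vwf had log2 changes of -0.03, 0.00, -0.03 and 0.17. The calls of Fga and Kng1 ended when any 1 of 6 and 7 arrays was left out (adjusted p up to 0.164 for Fga, without wild-type replicate 1, and 0.121 for Kng1, without wild-type replicate 3), and that of Kng1 under quantile normalization (log2 change -0.16, adjusted p = 0.300). That of Fga also ended with the mean of its probe sets (adjusted p = 0.0995) and in a model without moderation (0.148). In Mdr2-KO against wild type and between the knockouts no gene of this list passed. The lowest adjusted p were 0.0931 (Fgg, log2 change -0.32) and 0.763 (Fgb, -0.26). Under other settings Fgg and Fgb did pass in Mdr2-KO against wild type: both among genes above the median level (adjusted p = 0.0405 and 0.0443) and with a trended, robust prior (0.0426 and 0.0481), and Fgg with array weights (0.0417).

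Of 8 other anticoagulant genes 1 passed, in Mdr2-KO/IL6-KO against wild type, where 4.19% of all genes were called. Serpina10, the protein Z-dependent inhibitor of factor Xa, fell 1.89-fold in Mdr2-KO/IL6-KO against wild type (log2 change -0.92 ± 0.17 SE, adjusted p = 0.00680). It was 1.37-fold lower in Mdr2-KO (adjusted p = 0.328) and 1.38-fold lower between the knockouts (adjusted p = 0.996). Plat, the tissue plasminogen activator, rose 2.24-fold in Mdr2-KO/IL6-KO (adjusted p = 0.000222) and 1.80-fold in Mdr2-KO (adjusted p = 0.00531) against wild type. By array it read 6.13, 6.37, 6.10 and 6.24 in Mdr2-KO/IL6-KO, 5.76, 5.83, 6.09 and 5.90 in Mdr2-KO, and 5.17, 4.73 and 5.25 in wild-type livers, with no overlap between either knockout and wild type. Anxa2, a plasminogen and Plat receptor on cell surfaces, rose 2.65-fold in Mdr2-KO/IL6-KO (adjusted p = 0.00209), and its 1.72-fold difference in Mdr2-KO did not pass (adjusted p = 0.115). Plat and Anxa2 were the calls among 7 measured of 9 fibrinolysis genes. Over all genes, 2.91% were called higher in Mdr2-KO/IL6-KO and 0.948% in Mdr2-KO against wild type. F2r, the thrombin receptor PAR1, rose 1.79-fold and 1.62-fold in Mdr2-KO/IL6-KO and Mdr2-KO against wild type (adjusted p = 0.000738 and 0.00600), the 1 call among 3 measured of 4 receptors. Without moderation the calls of Serpina10 in Mdr2-KO/IL6-KO and of Plat and F2r in Mdr2-KO ended (adjusted p = 0.0580, 0.0586 and 0.0543). The bile duct, stellate and fibroblast markers given above were higher in the same livers. Of 7 endothelial markers, Lyve1 rose 1.58-fold in Mdr2-KO/IL6-KO against wild type (adjusted p = 0.0357) and 6 had a positive log2 change, with summed levels of 1724 to 2106 against 1429 to 1834. Of 5 platelet markers in the same comparison, Ppbp fell (log2 change -0.81, adjusted p = 0.0232). Pf4 went the other way without passing (log2 change 0.38, adjusted p = 0.205). Itga2b, Gp9 and Treml1 had log2 changes of -0.14, -0.02 and -0.10 and did not pass, so the platelet markers gave no common direction. The part of these cells in Plat, Anxa2 and F2r was not tested.

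**Figure D4:**
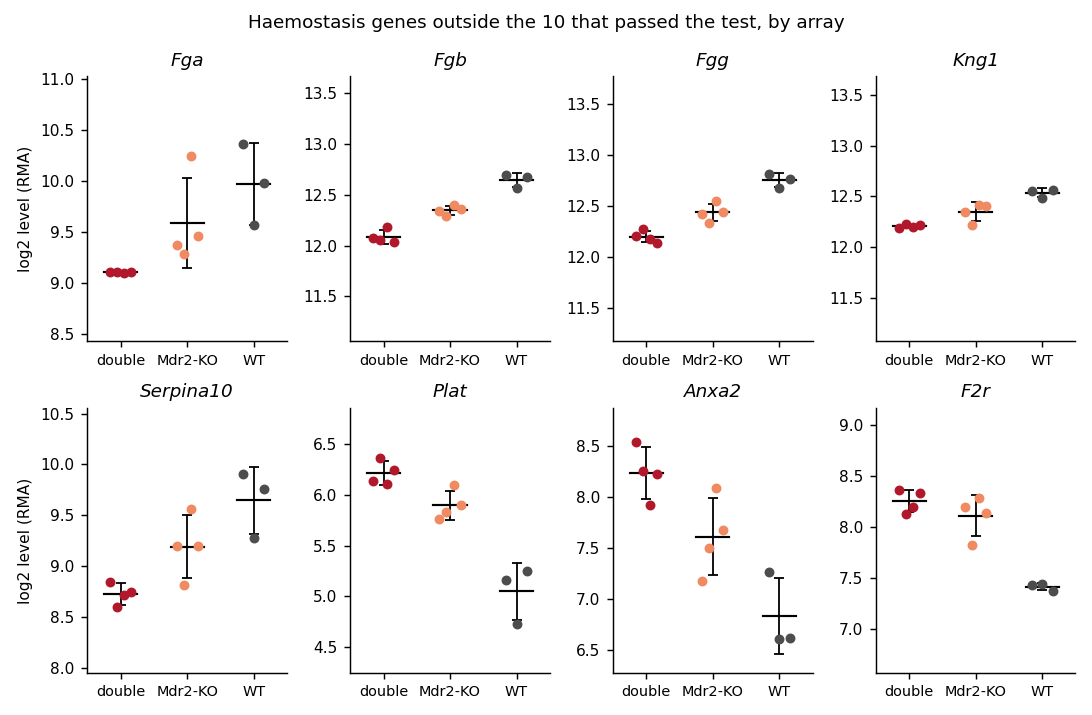
Log2 RMA level (vertical axis, 2.6 units in every panel) on each array of the 8 haemostasis genes outside the 10 that passed the test in Mdr2-KO/IL6-KO against wild type. Points are arrays, lines the mean and bars the SD for Mdr2-KO/IL6-KO ("double", n = 4), Mdr2-KO (n = 4) and wild type ("WT", n = 3). Fga, Fgb, Fgg, Kng1 and Serpina10 are lowest in Mdr2-KO/IL6-KO and Plat, Anxa2 and F2r are lowest in wild type.

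None of 6 genes of the vitamin K cycle and factor export passed in any comparison. Vkorc1, the vitamin K epoxide reductase, had a log2 change of 0.22 in Mdr2-KO against wild type (adjusted p = 0.524), and Gas6, another vitamin K-dependent protein, one of -0.33 in Mdr2-KO/IL6-KO against wild type (adjusted p = 0.0796). Of 10 measured hepatocyte regulators 3 fell in Mdr2-KO/IL6-KO against wild type, where 1.28% of all genes were called lower. Stat3, which carries the interleukin 6 signal, fell 2.05-fold (adjusted p = 0.000738). The forkhead factor Foxa3 fell 1.55-fold (0.00583) and the bile acid receptor Nr1h4 1.36-fold (0.0189). Stat3 read 8.37, 8.53, 8.61 and 8.56 in Mdr2-KO/IL6-KO, 9.18, 8.74, 9.34 and 8.99 in Mdr2-KO, and 9.67, 9.65 and 9.34 in wild-type livers. The Mdr2-KO/IL6-KO arrays lay below all others. The call of Nr1h4 ended when any 1 of 5 arrays was left out, wild-type replicate 2 or 3 or Mdr2-KO/IL6-KO replicate 1, 2 or 3 (adjusted p = 0.0555 to 0.101). None of the regulators passed in Mdr2-KO against wild type or between the knockouts, where Stat3 was lowest in p (adjusted p = 0.120 and 0.628), except that Foxa3 passed in Mdr2-KO against wild type with array weights (log2 change -0.44, adjusted p = 0.0446). Another list held 9 measured other proteins secreted by hepatocytes. It shares albumin (Alb), transthyretin (Ttr), Apoa1 and Apob with the hepatocyte markers above, so these readings are not separate. Of these 9 genes, 0 passed in any comparison. Their median log2 change was -0.12 in Mdr2-KO/IL6-KO against wild type, and that of the 10 genes was -0.08. The lowest adjusted p among them was 0.277, for Apoh. In Mdr2-KO against wild type it was 0.722, for Ttr (log2 change -0.12). Between the knockouts, the lowest p in the lists not yet given belonged to S100a10 among fibrinolysis genes (log2 change 0.50, adjusted p = 0.628), and to Gas6 (-0.20), the receptor F2rl3 (0.25) and Apoa1 (-0.14), each with an adjusted p of 0.9995.

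**Figure D5:**
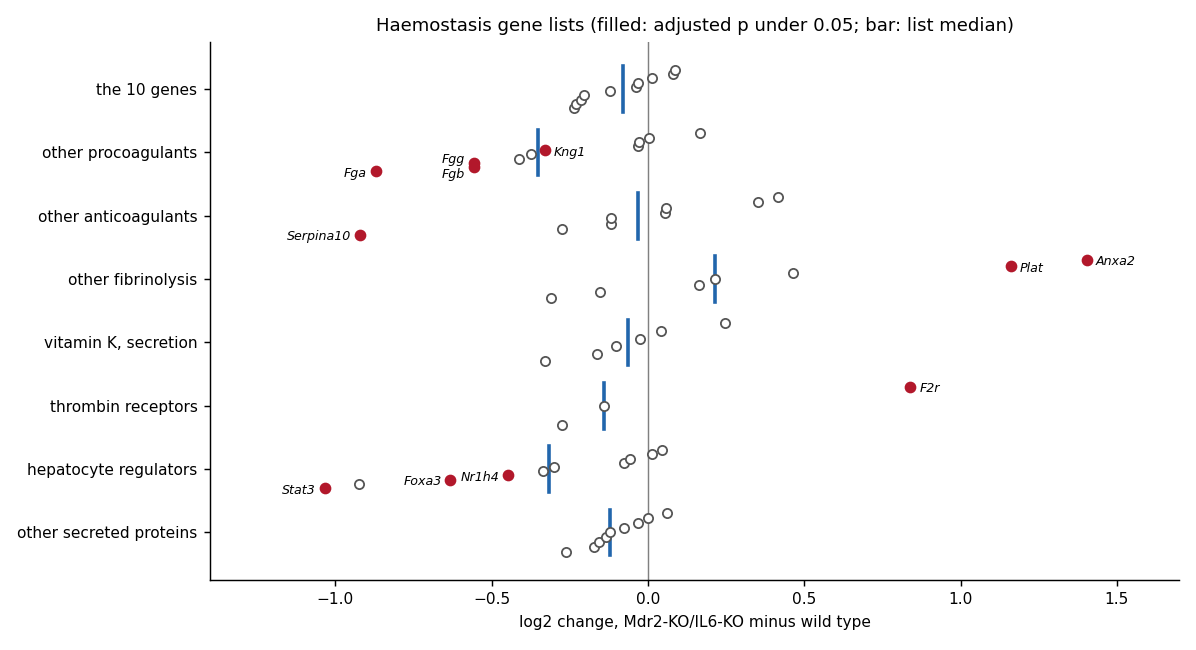
Log2 change in Mdr2-KO/IL6-KO minus wild type (horizontal axis) for every measured gene of each list, 1 circle a gene. Filled circles passed an adjusted p of 0.05 and vertical bars are list medians. The 10 clotting factor and plasminogen genes lie between -0.24 and 0.09 with none filled, and Fga, Serpina10, Plat and Anxa2 lie farther out.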

How the data were processed

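The authors deposited 1 table of log2 levels for 35557 probe sets on 11 arrays. The submitters' processing notes name RMA and Partek, with no version or setting. Nothing was normalized again. Array signals can saturate in very bright probe sets, which would make fold changes smaller; this was not tested. Probe sets with 1 gene symbol (21789; 1621 had several and 12147 none) were named through the platform annotation, with symbols updated by Entrez identifier against RefSeq (GRCm38.p6, used for names and neighbours). The brightest probe set per gene left 19938 genes. All were tested in 1 linear model of 3 group means and 3 contrasts in limma 3.58.1 (R 4.3.3, eBayes, two-sided, Benjamini-Hochberg over all genes, threshold 0.05). The number of arrays limits precision. Replicate numbers follow sample order and pair nothing. The fit was tested on simulated data. The 10 genes and the lists were chosen with earlier results of these data known. Named from the lists were all genes called, up to 6 a list and comparison, otherwise the 1 with the lowest p, and, for the 3 of the 10 genes with the lowest p, the 3 most correlated genes within groups. Alternatives were another choice of probe set, a filter on dim genes, 3 normalizations, other variance models, array weights, only the groups compared, stricter thresholds and leaving out each array. A fit with the array median as covariate, and one without Mdr2-KO replicates 2 and 3, were added after seeing the data.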

Additional observations from a re-analysis of the deposited data

Results flagged for a closer look

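In 42 groups of 4 arrays (the 10 genes and 11 other named genes in both knockouts), 3 held an array far from the others. Distance was read by Dixon's ratio of gap to range, and all 3 were among the 10 genes. Chance gives about 1 in 20, so this count is near chance. F12 and Plg were flagged on the same array and went together within groups (Pearson r = 0.95), so they are not separate. F5 read 10.50 in Mdr2-KO/IL6-KO replicate 2, above the other 3 arrays at 10.34 to 10.36. F12 read 10.26 in Mdr2-KO replicate 2, below 10.36 to 10.37. Plg read 11.94 in the same array, below the other 3 at 12.11 to 12.12. Without Mdr2-KO replicate 2, 0 of the 10 genes passed the test in any comparison, and their median log2 change was 0.0157 in Mdr2-KO against wild type and -0.13 between the knockouts.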

How the results depend on the processing

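For the 10 genes, 720 values under 24 alternatives gave 719 on the same side of the threshold as reported. Part of this was fixed beforehand: a gene uncalled at 0.05 cannot pass the stricter thresholds. The mean of probe sets also leaves the change of a gene with 1 probe set as it was. The 1 value that passed was F2 in Mdr2-KO/IL6-KO against wild type without moderation (1 of the 10 genes called, adjusted p = 0.0455, range over alternatives 0.0455 to 0.446). F2, F7, F10 and Plg kept their sign under all 24 alternatives in both comparisons of Mdr2-KO/IL6-KO. Several alternatives cannot move a log2 change: those that alter only the variance model, the threshold, the genes tested or an array of the third group. Those genes were also singled out for their falls in these same data. In Mdr2-KO against wild type F10 and F5, both near 0, changed sign under 5 and 6. The median log2 change of the 10 genes in Mdr2-KO against wild type (-0.04) had the opposite sign with array weights (0.0078), without wild-type replicate 2 (0.0150), without Mdr2-KO replicate 2 (0.0157) and, an alternative chosen after seeing the data, without Mdr2-KO replicates 2 and 3 (0.021). Genes called in that comparison (252) numbered 43 without moderation, 410 with array weights, 138 with only the groups compared, 94 at an adjusted p of 0.01, and 148 to 323 leaving out 1 array, with 149, 148 and 163 without wild-type replicates 1, 2 and 3. Between the knockouts (1) they numbered 4 among genes above the median, 2 with median centring, 4 with cyclic loess, 2 with trend and robust, 0 without moderation (4.82% of genes had an unadjusted limma p under 0.05), 6 with array weights, 2 with the array median as covariate, 2 without Mdr2-KO replicates 2 and 3, and 1 to 5 leaving out 1 array (5 without Mdr2-KO replicate 3 and 2 without replicate 2 of that group, without the first wild-type array, or without either the third or the fourth Mdr2-KO/IL6-KO array). In Mdr2-KO/IL6-KO against wild type (836) they numbered 496 without moderation, 1341 with array weights, 342 at an adjusted p of 0.01, 445 at a fold of at least 1.5, and 464 to 989 leaving out 1 array (464, 533 and 521 without wild-type replicates 1, 2 and 3, and 535 and 551 without Mdr2-KO/IL6-KO replicates 1 and 3). The cause was not tested. Each of the 10 genes has 1 probe set, so no other could be tried. No paired analysis was possible because the labels give no shared replicate numbers.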
